A study of Mus musculus with 30 samples.

Results

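Saa1, Saa2, Saa3, Orm2, Lcn2, Hp, Crp, Apcs and Itih4 are 9 genes for proteins that the mouse liver releases into blood during the acute phase response. They are the members of a list of 10 such genes that the arrays measured with a probe set carrying a single gene symbol, out of 17097 genes measured in that way. Orm1 carries no such probe set here and has no value. Each gene was read from its brightest probe set, and Saa2 was the member with a second probe set to choose from.

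The acute phase response is the change in hepatocyte secretion that follows infection, tissue damage or inflammation. Interleukin-6 acts on hepatocytes through the gp130 receptor and STAT3, and interleukin-1 acts through NF-kB and the C/EBP factors, so that genes for positive acute phase proteins are transcribed more. In mice serum amyloid A and serum amyloid P are the strongly inducible members, while C-reactive protein, the classical human marker, responds little in that species.

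Non-tumour liver from 30 mice was profiled on 1-colour Affymetrix arrays, 1 array per mouse. Of the mice on CD-HFD, the diet of a steatohepatitis model that leads to hepatocellular carcinoma (HCC), 6 were given aspirin with clopidogrel and 10 sulindac, in both cases prophylactically, and 9 were given vehicle. Aspirin and sulindac inhibit cyclooxygenases and clopidogrel blocks the platelet receptor P2Y12. The 9 vehicle mice are split by their labels into 4 that had developed HCC and fibrosis and 5 that had not, and 5 healthy mice on chow, also given vehicle, are the reference. The labels state no strain, sex, age, dose, time or array batch, and the design text lists 4 vehicle mice where the labels give 9. The drug arms are not divided by tumour outcome in the labels.

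All values are log2 of the deposited normalised intensity, so a difference of 1 is a doubling. Each array had a median intensity between 24.1 and 24.6, and the hepatocyte gene Alb lay between 13.41 and 13.68 on every array, near the upper end of the arrays' range. Of the 14 vehicle and healthy arrays, 4 lay nearer the other kind of liver than their own. These were Veh_low_794 and Veh_low_1819 among the vehicle mice without HCC and Hlth_1798 and Hlth_1807 among the healthy mice. Mice are named after their titles, with Veh_high for vehicle with HCC, Sulin for sulindac, AspClo for aspirin/clopidogrel and the animal number. The measure was the correlation of each array with the mean of the remaining arrays of its own group (all vehicle, or healthy) and with the mean of the other, over 8549 brighter genes. The same 4 arrays stood out over 8461 genes from which the acute phase genes and all marker lists were left out. Their labels were kept, and the group differences, the order of the groups and the correlations are also given without them. Since they were picked on measured values, leaving them out narrows the groups, and the adjusted p-values of that second fit are smaller than an unselected comparison would give.

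Saa1, Saa2 and Saa3 lie in 1 cluster on mouse chromosome 7 (GRCm38.p6), with 8.65 kb between Saa1 (46740497 to 46743181) and Saa2 (46751833 to 46754313) and 20.9 kb between Saa3 (46711998 to 46719615) and Saa1. Crp (172698056 to 172699966) and Apcs (172893961 to 172895054) are 194 kb apart on chromosome 1, and Orm2 (63362449 to 63365877) lies 14.3 kb from Orm1 on chromosome 4. Lcn2 (32384637 to 32387739) is on chromosome 2, Hp (109575128 to 109579172) on chromosome 8 and Itih4 (30886476 to 30901986) on chromosome 14. RefSeq windows of 250 bases before to 50 bases after the gene start were given for 8 of the 9 genes, all but Hp. The 4 genes whose levels moved together across mice, described below, are shown first by the 250 bases before that start, followed by Crp, which was flat against them over all mice. Capitals mark matches to the C/EBP motif TTNNGNAA on either strand.
Saa1, chr7:46742981-46743230, minus strand: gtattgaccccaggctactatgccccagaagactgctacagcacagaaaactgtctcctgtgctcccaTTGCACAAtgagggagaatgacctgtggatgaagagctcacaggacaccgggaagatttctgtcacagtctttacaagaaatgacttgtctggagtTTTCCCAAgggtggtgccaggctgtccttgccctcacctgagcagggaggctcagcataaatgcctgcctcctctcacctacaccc
Saa2, chr7:46751583-46751832, plus strand: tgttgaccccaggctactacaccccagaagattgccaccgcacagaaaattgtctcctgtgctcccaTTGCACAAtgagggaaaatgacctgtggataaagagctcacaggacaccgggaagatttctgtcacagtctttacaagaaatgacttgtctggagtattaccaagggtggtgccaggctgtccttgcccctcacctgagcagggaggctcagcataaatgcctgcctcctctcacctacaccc
Orm2, chr4:63362199-63362448, plus strand: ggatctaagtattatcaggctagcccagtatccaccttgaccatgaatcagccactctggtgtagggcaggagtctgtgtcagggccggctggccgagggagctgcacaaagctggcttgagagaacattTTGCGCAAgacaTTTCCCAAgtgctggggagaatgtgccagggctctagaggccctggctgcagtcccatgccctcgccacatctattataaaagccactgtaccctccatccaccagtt
Lcn2, chr2:32387740-32387989, minus strand: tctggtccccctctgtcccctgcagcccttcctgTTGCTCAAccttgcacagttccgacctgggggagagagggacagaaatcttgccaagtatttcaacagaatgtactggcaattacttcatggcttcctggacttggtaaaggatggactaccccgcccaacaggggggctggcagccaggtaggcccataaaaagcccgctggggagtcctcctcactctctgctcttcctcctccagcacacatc
Crp, chr1:172697806-172698055, plus strand: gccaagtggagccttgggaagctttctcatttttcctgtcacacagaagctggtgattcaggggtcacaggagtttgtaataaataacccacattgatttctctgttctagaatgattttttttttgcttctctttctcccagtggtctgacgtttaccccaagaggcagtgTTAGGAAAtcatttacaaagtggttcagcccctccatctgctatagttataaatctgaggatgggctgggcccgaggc

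The windows of Saa1 and Saa2 were identical at 287 of 299 aligned bases (96%), and the annotated Saa1 gene reaches 201 bases past the start used for its window. For Saa3 the annotated gene reaches 3.94 kb past it, so its window lies inside the gene as annotated. The C/EBP motif was found in 6 of the 8 windows (Saa1, Saa2, Saa3, Orm2, Lcn2 and Crp) and in 40.7% of all 32851 mouse windows. Saa1 and Saa2 share the match TTGCACAA, at -182 to -175 in Saa1 and -183 to -176 in Saa2. Orm2 holds TTGCGCAA at -120 to -113 and TTTCCCAA at -108 to -101, where positions are counted back from the gene start. The STAT motif TTCNNNGAA, on either strand, was found in Apcs (TTCTAGGAA at -244 to -236) and Itih4 (TTCCGAGAA at -51 to -43), 2 of 8 windows against 8.3% of all windows. The NF-kB motif (GGG, any 2 bases, TT, any base, CC), on either strand, was found in 0 of 8 windows and in 4.79% of all. TATAAA on the gene's strand was found in Orm2 (-33 to -28) and Crp (-31 to -26), against 8.32% of all windows. No match overlapped another motif. These are matches of letters, and no binding was measured.

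Saa1 and Saa2 encode the apolipoproteins that replace others on high-density lipoprotein during inflammation. Saa1 lay between 10.19 and 11.28 with a median of 10.94 in aspirin/clopidogrel livers. In sulindac livers it lay between 11.04 and 12.31 with a median of 11.45. In vehicle livers with HCC it was 11.31, 11.81, 11.83 and 11.90, and in vehicle livers without HCC it was 11.38, 11.32, 11.20, 10.12 and 9.21. Healthy livers had 11.69, 11.52, 9.69, 9.57 and 9.46. Both the vehicle livers without HCC and the healthy livers were therefore divided into a high and a low part, and the values 10.12 and 9.21 (Veh_low_1819 and Veh_low_794) and 11.69 and 11.52 (Hlth_1807 and Hlth_1798) belong to the 4 arrays above. Saa2 followed Saa1 in every group, with a Pearson correlation of 0.99 over 30 mice and a largest difference of 0.37 in any mouse. The second Saa2 probe set correlated with the first at 0.99. Since the genes are near-identical copies, the probe sets may read both transcripts, and the share of each is uncertain.

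Saa3, whose product in mice comes largely from macrophages and fat cells, was not divided between the same mice in both of these groups. It lay between 6.26 and 7.18 with a median of 6.89 in aspirin/clopidogrel livers, and between 6.87 and 8.36 with a median of 7.70 in sulindac livers. Vehicle livers with HCC had 8.33, 7.53, 5.98 and 5.78, and vehicle livers without HCC had 7.76, 7.29, 6.70, 6.62 and 6.60. Healthy livers had 7.87 (Hlth_1807), 7.12 (Hlth_1798), 6.80, 6.78 and 6.47, so the highest were the same mice as for Saa1. The livers with HCC held both the lowest values of any mouse and, at 8.33, a value close to the highest, and Veh_low_1819, low for Saa1, was the highest of its group for Saa3.

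**Figure D1:**
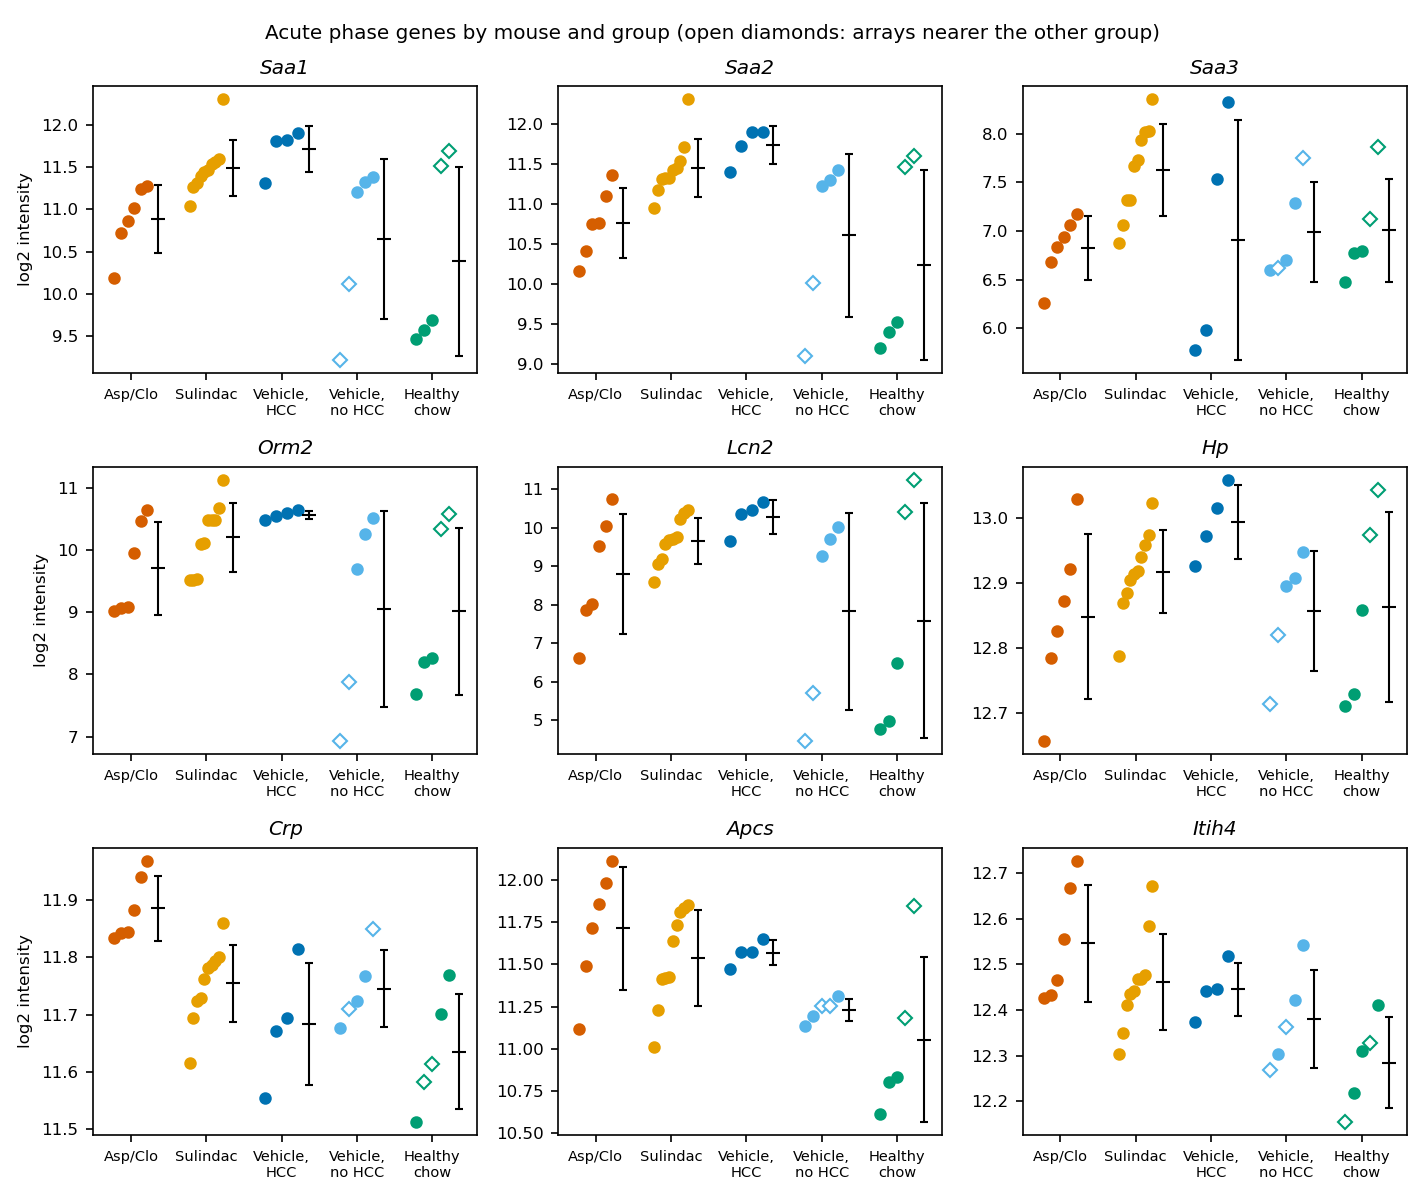
Log2 intensity (y axis, scale differing by panel) of the 9 acute phase genes in each mouse, by group (x axis); points are mice, open diamonds the 4 arrays nearer the other group, and bars the mean and SD. For Saa1, Saa2, Orm2 and Lcn2 the diamonds of vehicle mice sit with the healthy livers and those of healthy mice with the CD-HFD livers, whereas the 6 aspirin/clopidogrel points of Crp lie between 11.83 and 11.97.

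Orm2 encodes an orosomucoid, a plasma carrier of basic and lipophilic molecules. It lay between 9.02 and 10.64 with a median of 9.52 in aspirin/clopidogrel livers and between 9.51 and 11.13 with a median of 10.29 in sulindac livers. Vehicle livers with HCC were tightly grouped at 10.48, 10.55, 10.59 and 10.64. Vehicle livers without HCC had 10.51, 10.26, 9.70, 7.87 and 6.93, and healthy livers had 10.58, 10.34, 8.26, 8.20 and 7.69. Within the aspirin/clopidogrel group 3 mice (AspClo_60, AspClo_62 and AspClo_63) had 9.07, 9.09 and 9.02 and the other 3 (AspClo_58, AspClo_61 and AspClo_64) had 10.47, 9.95 and 10.64, so no mouse lay between 9.09 and 9.95.

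Lcn2 encodes lipocalin 2, which withholds iron from bacteria by binding their siderophores and is made by hepatocytes and neutrophils. In aspirin/clopidogrel livers it had 10.73, 10.04 and 9.52 in AspClo_64, AspClo_61 and AspClo_58 and 8.02, 7.86 and 6.63 in AspClo_62, AspClo_63 and AspClo_60. Sulindac livers lay between 8.58 and 10.46 with a median of 9.69. Vehicle livers with HCC had 10.66, 10.44, 10.35 and 9.65. In vehicle livers without HCC the values were 10.00, 9.70, 9.26, 5.70 and 4.47, and in healthy livers they were 11.23, 10.41, 6.48, 5.00 and 4.78. The range over all mice was 108-fold, and the SD over 30 mice, 1.92, was higher than that of 99.9% of genes. The highest liver of all for Lcn2 was Hlth_1798 and the lowest Veh_low_794. The 3 aspirin/clopidogrel mice with low Lcn2 were those with low Orm2.

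Hp encodes haptoglobin, which binds free haemoglobin. Its whole range over 30 mice was 1.32-fold, with means of 12.85 ± 0.13 (SD, n = 6) in aspirin/clopidogrel, 12.92 ± 0.06 (n = 10) in sulindac, 12.99 ± 0.06 (n = 4) in vehicle with HCC, 12.86 ± 0.09 (n = 5) in vehicle without HCC and 12.86 ± 0.15 (n = 5) in healthy livers. The probe set lies near the upper end of the arrays' range.

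Crp encodes C-reactive protein, a pentraxin that binds phosphocholine on microbes and damaged cells. It lay between 11.83 and 11.97 with a median of 11.86 in aspirin/clopidogrel livers, and between 11.62 and 11.86 with a median of 11.77 in sulindac livers. Vehicle livers with HCC had 11.81, 11.69, 11.67 and 11.55, vehicle livers without HCC had 11.85, 11.77, 11.72, 11.71 and 11.68, and healthy livers had 11.77, 11.70, 11.61, 11.58 and 11.51. The aspirin/clopidogrel livers were above all healthy livers and above all vehicle livers but Veh_low_794, whose 11.85 lay among them. Group membership held 56.5% of the variance of Crp over the 30 mice, against 26.1% for Lcn2. Without the 4 arrays these shares turned round, with 53.9% for Crp and 74% for Lcn2 over 26 mice.

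Apcs encodes serum amyloid P, the pentraxin that is the main acute phase pentraxin of mice. It lay between 11.11 and 12.11 with a median of 11.79 in aspirin/clopidogrel livers and between 11.01 and 11.85 with a median of 11.53 in sulindac livers. Vehicle livers with HCC had 11.65, 11.57, 11.57 and 11.47, and vehicle livers without HCC had 11.31, 11.25, 11.25, 11.20 and 11.14, so that these groups did not overlap. Healthy livers had 11.85, 11.18, 10.83, 10.80 and 10.61. Itih4, whose product belongs to the inter-alpha-trypsin inhibitor heavy chain family, lay between 12.43 and 12.73 in aspirin/clopidogrel livers, between 12.30 and 12.67 in sulindac livers, between 12.37 and 12.52 in vehicle livers with HCC and between 12.27 and 12.54 in vehicle livers without HCC. Healthy livers lay between 12.15 and 12.41, below all 6 aspirin/clopidogrel livers.

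The order of group means was the same for Saa1, Saa2, Orm2 and Lcn2. Vehicle with HCC was highest, followed by sulindac, aspirin/clopidogrel, vehicle without HCC and healthy. For Saa1 and Saa2 the step between sulindac and aspirin/clopidogrel was larger than the larger SD of those groups, for Lcn2 the step between vehicle with HCC and sulindac was, and the remaining neighbours in the order, all of them for Orm2, lay within that spread. This order rests on Veh_low_794 and Veh_low_1819. With the 4 arrays left out, vehicle without HCC moved above aspirin/clopidogrel for all 4 genes. Saa1 then averaged 10.89 in aspirin/clopidogrel and 11.30 in vehicle without HCC, Saa2 10.76 and 11.31, Orm2 9.71 and 10.16 and Lcn2 8.80 and 9.65 in the same groups, steps that were larger than the larger SD for Saa1 and Saa2 and within it for Orm2 and Lcn2. Aspirin/clopidogrel livers then lay above healthy livers by more than that spread for all 4. Crp, Apcs and Itih4 had their highest mean in aspirin/clopidogrel livers and their lowest in healthy livers, also without the 4 arrays. Saa3 was highest in sulindac livers, by more than the larger SD of that group and the healthy livers, which came next, but without the 4 arrays vehicle with HCC came next, within its SD.

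Across individual mice the 4 genes Saa1, Saa2, Orm2 and Lcn2 went up and down together. Pearson correlations of their 6 pairs lay between 0.89 and 0.99 over 30 mice, and between 0.86 and 0.99 for deviations from the group means. Within the 10 sulindac livers, none of which is among the 4 arrays, they lay between 0.55 and 0.96. Over the 26 mice without the 4 arrays they lay between 0.86 and 0.99, and for deviations from the group means between 0.39 (Saa1 with Lcn2) and 0.94. Hp followed these 4 genes less closely, at 0.66 to 0.76 over 30 mice and at 0.64 to 0.74 over those 26. For Apcs these values were 0.55 to 0.64 and 0.60 to 0.70, and for Itih4 0.34 to 0.40 and 0.37 to 0.51. Within the 10 sulindac livers Hp did not follow all of them, at 0.32 with Saa1, 0.20 with Saa2, -0.07 with Orm2 and 0.02 with Lcn2. Within the 6 aspirin/clopidogrel livers it was 0.69, 0.55, 0.69 and 0.74 with the same genes. For deviations from the group means over the 26 mice Hp correlated at 0.30 (Orm2) to 0.59 (Lcn2). Crp correlated with the same 4 genes at -0.06 to -0.03 over 30 mice and at 0.07 to 0.16 over those 26. Within single arms it was less flat: within aspirin/clopidogrel livers it was 0.39 with Saa1, 0.31 with Saa2, 0.49 with Orm2 and 0.61 with Lcn2 (n = 6), and within sulindac livers 0.47, 0.31, 0.08 and -0.05 with the same genes (n = 10). For Saa3 the correlation was 0.39 with Saa1 and 0.33 with Lcn2, and within the sulindac livers it was 0.84 with Lcn2. These values are descriptions over mice of 5 groups, so no p is given.

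**Figure D2:**
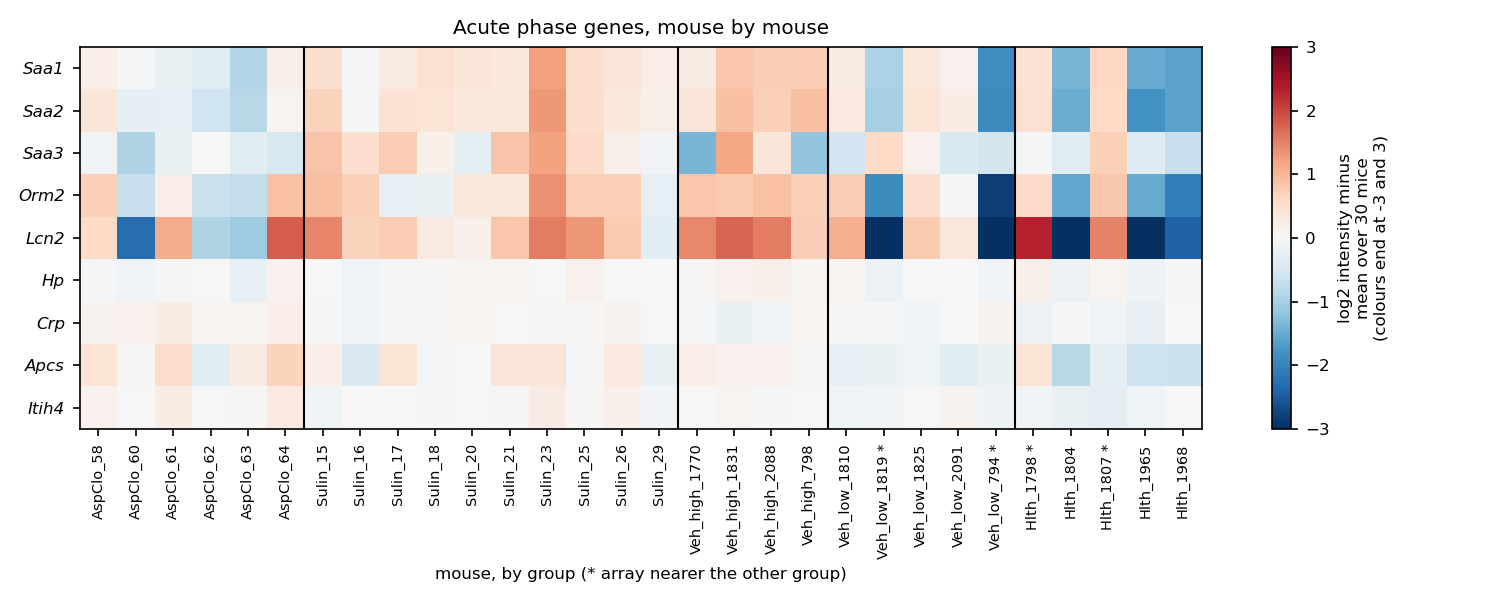
Heat map of 9 acute phase genes (rows) in 30 mice (columns, by group: AspClo aspirin/clopidogrel, Sulin sulindac, Veh_high vehicle with HCC, Veh_low vehicle without HCC, Hlth healthy, an asterisk on the 4 arrays nearer the other kind), coloured by log2 intensity minus the gene's mean over 30 mice, with colours ending at -3 and 3. Saa1, Saa2, Orm2 and Lcn2 are low together in Veh_low_794 and Veh_low_1819 and in Hlth_1804, Hlth_1965 and Hlth_1968, and the rows of Hp, Crp and Itih4 are pale.

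**Figure D3:**
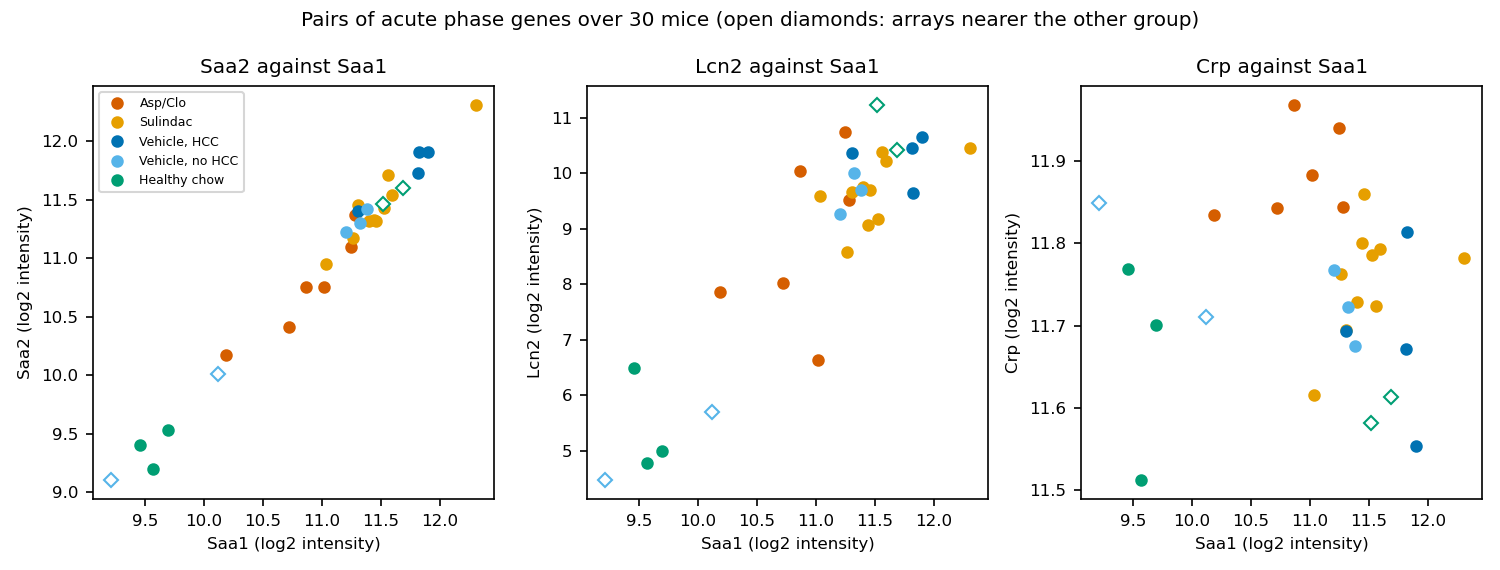
Saa2, Lcn2 and Crp (y axes, log2 intensity) against Saa1 (x axis, log2 intensity) in 30 mice, coloured by group, with open diamonds for the 4 arrays nearer the other group. Saa2 and Lcn2 rise with Saa1 (Pearson 0.99 and 0.89), and Crp has no such slope (-0.05).

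Vehicle and healthy livers were set against each other to ask how the diet moves these genes. With all 30 arrays, 0 of the 9 acute phase genes passed limma's test at an adjusted p under 0.05, and 0.0117% of all genes did. At an unadjusted p under 0.05 it was 3 of the 9 and 6.73% of all genes. Saa1 averaged 11.12 ± 0.89 (SD, n = 9) in vehicle and 10.38 ± 1.12 (n = 5) in healthy livers, a difference of 0.74 (95% interval 0.02 to 1.45, adjusted p = 0.717). Lcn2 averaged 8.91 ± 2.24 in vehicle and 7.58 ± 3.04 in healthy livers, a difference of 1.33 (-0.61 to 3.28, adjusted p = 0.881). The median difference over the 9 genes was 0.33, against 0.00317 over all genes. No gene of the 9 had groups that did not overlap, against 0.117% of all genes.

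Without the 4 arrays, 5 of the 9 genes rose in vehicle livers (n = 7) over healthy livers (n = 3), where 5.61% of all genes passed and 3.16% passed as higher. Lcn2 averaged 10.01 ± 0.50 in vehicle and 5.42 ± 0.93 in healthy livers, a difference of 4.59 (3.35 to 5.82, adjusted p = 4.73e-05 in limma) or 24.1-fold. Orm2 rose by 2.34 (1.62 to 3.06), Saa2 by 2.18 (1.72 to 2.64), Saa1 by 1.96 (1.54 to 2.39) and Apcs by 0.67 (0.31 to 1.03). Hp differed by 0.19 (adjusted p = 0.0515), Itih4 by 0.12, Crp by 0.04 and Saa3 by 0.21 (-0.59 to 1.01). Groups did not overlap for these 5 genes and Hp, against 5.51% of all genes higher without overlap. The size of the diet difference for Saa1, Saa2, Orm2 and Lcn2 rests on these arrays, and the p-values carry the selection of arrays.

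Split by tumour outcome, 0 of the 9 genes passed in vehicle with HCC against healthy livers with all arrays, where 0.0994% of genes passed. At an unadjusted p under 0.05 in limma it was 6 of the 9 and 9.26% of all genes. Saa2 averaged 11.74 ± 0.24 in vehicle with HCC and 10.24 ± 1.19 in healthy livers, a 2.83-fold difference (adjusted p = 0.208), which passed when Hlth_1807 alone was left out (adjusted p = 0.0449). For vehicle without HCC against healthy livers also 0 of 9 passed, and 0% of all genes, with 1 of the 9 and 5.32% of all genes at an unadjusted p under 0.05. Without the 4 arrays, 6 of 9 passed for vehicle with HCC (5.01% of genes) and 4 of 9 for vehicle without HCC (2.95% of genes). These were Saa1, Saa2, Orm2 and Lcn2 in both, with Apcs and Hp added in livers with HCC. The difference of Lcn2 from healthy livers was 4.86 for vehicle with HCC and 4.23 for vehicle without HCC, and both are measured against the same 3 healthy mice.

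The comparison of vehicle livers with and without HCC asked what differs in tissue outside the tumour. With all arrays, 0 of 9 genes passed (0.0877% of all genes did), and Saa1, Saa2, Orm2 and Lcn2 had an unadjusted p under 0.05 in limma, as did 8.87% of all genes. Orm2 averaged 10.57 ± 0.06 (n = 4) with HCC and 9.05 ± 1.57 (n = 5) without HCC, a difference of 1.51 (0.26 to 2.76, adjusted p = 0.426). Lcn2 differed by 2.45 (0.11 to 4.79, adjusted p = 0.537) and Saa1 by 1.07 (0.21 to 1.92, adjusted p = 0.419). Without Veh_low_794 and Veh_low_1819 these differences were 0.41 for Orm2, 0.62 for Lcn2 and 0.41 for Saa1, with 0 of 9 past the threshold and 0.0819% of genes. Apcs was the gene whose groups did not overlap, 11.47 to 11.65 with HCC and 11.14 to 11.31 without, as 1.02% of genes did in that direction. Its difference was 0.34 (-0.07 to 0.75, adjusted p = 0.667) with all arrays and 0.35 without the 4.

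The sulindac comparison set the sulindac arm against vehicle mice on the same diet, which also differ from it in their series of animal numbers. Of the 9 genes, 0 passed in sulindac against vehicle livers, where 0.199% of all genes passed, and Saa3 had an unadjusted p under 0.05 in limma, as did 10.4% of all genes. All 9 differences were positive, as were 53.2% of those of all genes, with a median of 0.34 against 0.00515. Saa3 averaged 7.63 ± 0.47 (n = 10) in sulindac and 6.95 ± 0.84 (n = 9) in vehicle livers, a difference of 0.68 (0.13 to 1.23, adjusted p = 0.351). Saa1 differed by 0.37 (-0.22 to 0.96) and Lcn2 by 0.74 (-0.86 to 2.34). Once the 4 arrays were left out, Saa3 differed by 0.74 (adjusted p = 0.238), Saa1 by -0.05 (-0.35 to 0.26) and Lcn2 by -0.35 (-1.23 to 0.53), with 0 of 9 past the threshold and 0.836% of genes. Macrophage markers, which bear on Saa3, had a mean level relative to all mice of -0.21 to 0.62 in sulindac and -0.79 to 0.45 in vehicle livers, and their part in the difference was not tested.

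In aspirin/clopidogrel against vehicle livers, Crp rose, the 1 gene of the 9 that passed, where 1.96% of all genes passed and 0.983% rose. It averaged 11.89 ± 0.06 (n = 6) in aspirin/clopidogrel and 11.72 ± 0.09 (n = 9) in vehicle livers, a difference of 0.17 (SE 0.04, 95% interval 0.08 to 0.25, adjusted p = 0.0349 in limma) or 1.12-fold. The call was lost when any of 9 mice was left out (AspClo_58, AspClo_61, AspClo_63, AspClo_64, Veh_high_1770, Veh_high_1831, Veh_high_2088, Veh_low_1810 and Veh_low_1825), with differences of 0.15 to 0.18 and an adjusted p of at most 0.117. It was lost too when arrays were shifted to 1 median of the brighter genes (0.14, adjusted p = 0.228), or when only the groups compared were fitted (0.17, adjusted p = 0.0893). The hepatocyte markers had a mean level relative to all mice of 0.02 to 0.15 in aspirin/clopidogrel and -0.11 to 0.02 in vehicle livers, where 9 of 10 were higher, as were 50.8% of all genes, 4 of 10 had an unadjusted p under 0.05 in limma, as did 14.6% of all genes, and 0 of 10 passed. Their median difference was 0.13, beside 0.17 for Crp. With the 4 arrays left out, 1 of the 10 (Hpd) rose in this comparison, where 2.42% of all genes rose. The part of the hepatocyte markers in the Crp difference was not tested, and on bulk tissue fewer cells of a type and less RNA per cell cannot be told apart.

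With all arrays Saa1 differed between aspirin/clopidogrel and vehicle livers by -0.24 (-0.91 to 0.44), Orm2 by -0.02 (SE 0.48) and Lcn2 by -0.11 (-1.95 to 1.72). In the fit that leaves out the 4 arrays, Saa2 fell by 0.80 (adjusted p = 0.00921) and Saa1 fell by 0.65 (adjusted p = 0.0216) in aspirin/clopidogrel livers, and Crp rose by 0.19 (adjusted p = 0.0183), where 4.79% of genes passed. Saa1 then averaged 10.89 ± 0.40 (n = 6) in aspirin/clopidogrel and 11.54 ± 0.30 (n = 7) in vehicle livers. Lcn2 differed by -1.21 (-2.21 to -0.21, adjusted p = 0.166) and Orm2 by -0.68 (adjusted p = 0.182). The aspirin/clopidogrel livers overlapped the vehicle livers for Saa1, Saa2, Orm2 and Lcn2, and Crp was then the gene without overlap, as 0.573% of genes were in that direction.

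**Figure D4:**
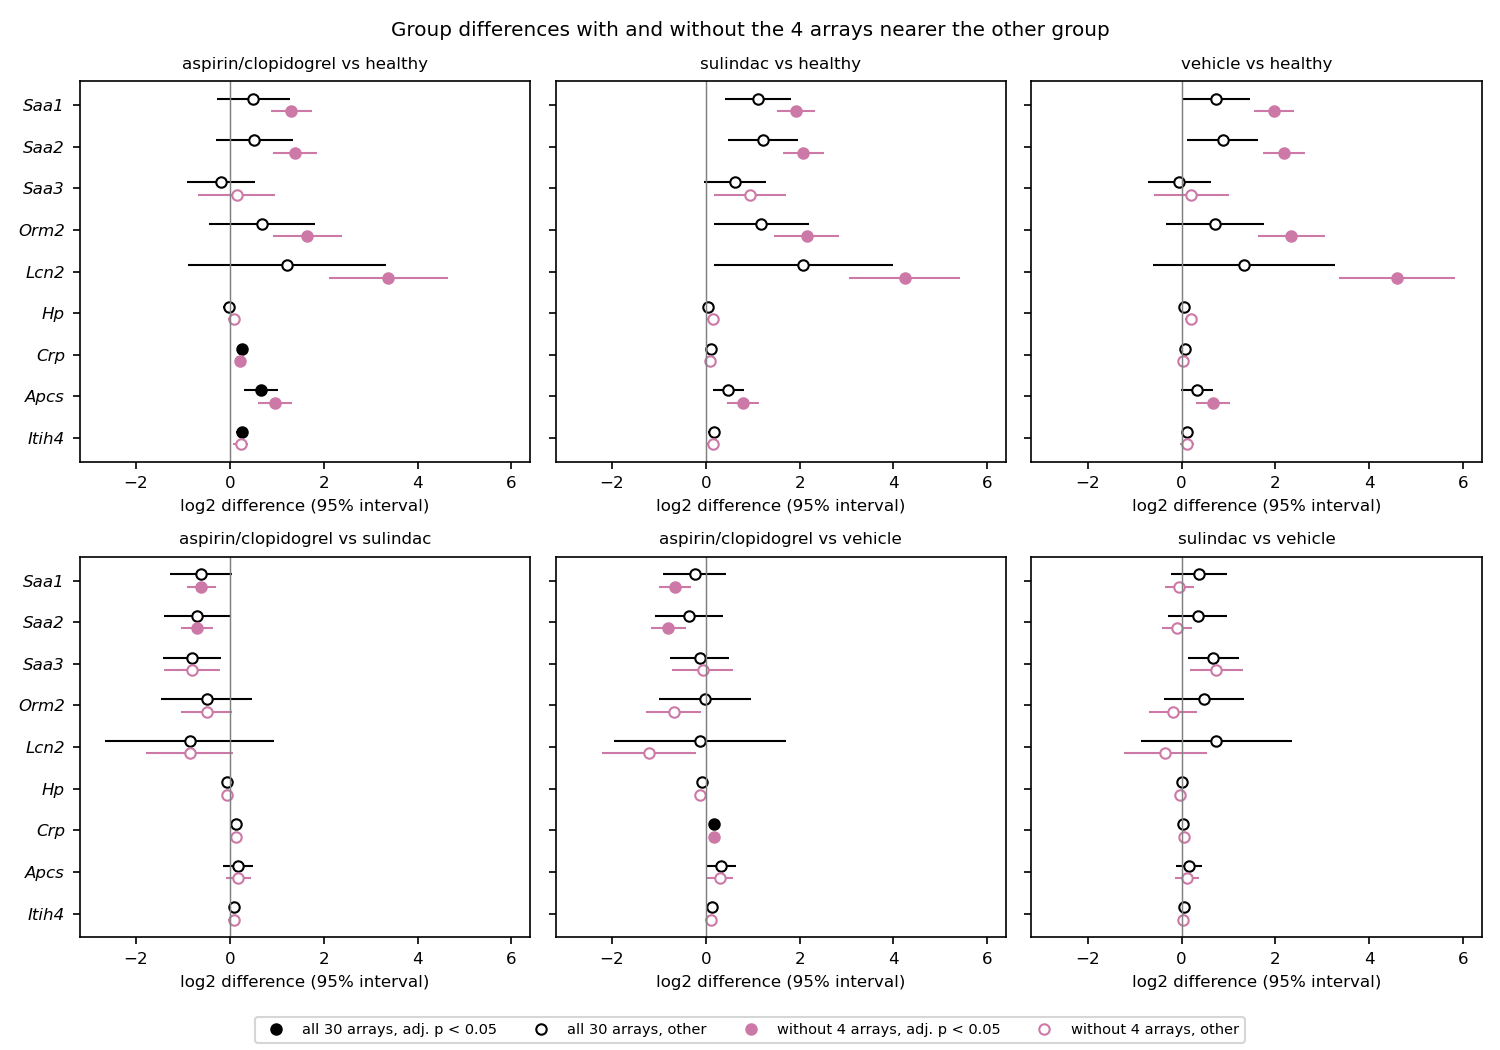
Difference in log2 intensity (x axis, first-named minus second-named group, with 95% intervals) of the 9 acute phase genes (y axis) in 6 comparisons, with all 30 arrays (black) and with those 4 left out (pink), filled where the adjusted p was under 0.05. Without these arrays Lcn2 differs from healthy by 3.38 in aspirin/clopidogrel, 4.24 in sulindac and 4.59 in vehicle livers, and the intervals of Crp, Hp and Itih4 are narrow.

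The arms were also compared directly, in 6 and 10 mice that include none of the 4 arrays. In aspirin/clopidogrel against sulindac livers 0 of 9 genes passed with all arrays in the fit, where 0.877% of genes passed, and Crp and Saa3 had an unadjusted p under 0.05 in limma, as did 10.8% of all genes. Saa3 averaged 6.83 ± 0.33 in aspirin/clopidogrel and 7.63 ± 0.47 in sulindac livers, a difference of -0.80 (-1.42 to -0.19, adjusted p = 0.261). Crp differed by 0.13 (0.05 to 0.22, adjusted p = 0.15). Saa1 and Saa2 differed by -0.61 (adjusted p = 0.521) and -0.70 (adjusted p = 0.471), and both passed once the 4 arrays no longer entered the shared estimate of spread (adjusted p = 0.039 and 0.0278), where 2.01% of genes passed. The differences themselves are the same in both fits, and the smaller p-values carry the selection of the 4 arrays. For Saa1 4 of 6 aspirin/clopidogrel livers lay below all sulindac livers.

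Against healthy livers, 3 of the 9 genes rose in aspirin/clopidogrel livers (2.77% of all genes passed and 1.64% rose). Crp averaged 11.89 ± 0.06 in aspirin/clopidogrel and 11.64 ± 0.10 in healthy livers, a difference of 0.25 (0.15 to 0.35, adjusted p = 0.0043 in limma), which held with each of the 11 mice left out in turn. It was lost when only these groups were fitted (adjusted p = 0.0751) and when arrays were shifted to 1 median of the brighter genes (0.21, adjusted p = 0.0762). Itih4 averaged 12.55 ± 0.13 in aspirin/clopidogrel and 12.28 ± 0.10 in healthy livers, a difference of 0.26 (0.13 to 0.39, adjusted p = 0.0216). Apcs averaged 11.71 ± 0.36 in aspirin/clopidogrel and 11.05 ± 0.49 in healthy livers, a difference of 0.66 (0.29 to 1.03, adjusted p = 0.041). Groups did not overlap for Crp and Itih4, against 1.19% of all genes higher without overlap. The call of Itih4 was lost without AspClo_61, AspClo_64, Hlth_1804 or Hlth_1807 (0.22 to 0.24, adjusted p at most 0.0682), with only these groups fitted (adjusted p = 0.144) and with the shifted arrays (0.22, adjusted p = 0.0782). That of Apcs was lost without AspClo_58, AspClo_61, AspClo_63, AspClo_64, Hlth_1804, Hlth_1807, Hlth_1965 or Hlth_1968 (0.55 to 0.69, adjusted p at most 0.13), and with only these groups fitted (adjusted p = 0.269).

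Without the 4 arrays 6 genes passed in aspirin/clopidogrel against healthy livers, where 5.43% of genes passed and 2.92% rose. Lcn2 rose by 3.38 (2.11 to 4.65), Orm2 by 1.65, Saa2 by 1.38, Saa1 by 1.31 and Apcs by 0.97, and Crp rose by 0.23 (adjusted p = 0.0228), while Itih4 differed by 0.23 (adjusted p = 0.0738). In sulindac against healthy livers 0 of 9 passed with all arrays (2.98% of genes did, and 7 of the 9 had an unadjusted p under 0.05 in limma, as did 14.8% of all genes). Saa2 averaged 11.45 ± 0.36 in sulindac and 10.24 ± 1.19 in healthy livers, a difference of 1.22 (adjusted p = 0.0653). It passed when Hlth_1798 or Hlth_1807 was left out, as did Saa1, and Apcs passed without Hlth_1798. The lowest adjusted p was then 0.0156 for Saa2, 0.0173 for Saa1 and 0.00855 for Apcs, with differences of up to 1.56, 1.43 and 0.68. Without the 4 arrays 5 genes rose in sulindac livers, by 4.24 for Lcn2, 2.15 for Orm2, 2.08 for Saa2, 1.92 for Saa1 and 0.79 for Apcs, where 7.76% of genes passed and 4.87% rose. The 3 diet groups share the healthy mice, so their differences from healthy livers are not independent of each other.

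Of 23 regulators of the response listed, 20 were measured. Il6 itself averaged 4.16 ± 0.11 in aspirin/clopidogrel, 4.15 ± 0.08 in sulindac, 4.12 ± 0.08 in vehicle and 4.09 ± 0.10 in healthy livers, below the 25th percentile of gene means, which was 4.44. Against vehicle, Lifr (leukaemia inhibitory factor receptor) rose in aspirin/clopidogrel livers, with 10.64 ± 0.27 in aspirin/clopidogrel and 9.96 ± 0.21 in vehicle livers (0.68, adjusted p = 0.00824). Its groups did not overlap with all arrays, and leaving out vehicle mice cannot make them overlap. In this comparison 0.573% of all genes were higher without overlap once the 4 arrays were left out. The matching share with all arrays is not given, so the separation seen with all arrays has no background beside it. Cebpd, a C/EBP factor induced in the acute phase, fell, with 5.41 ± 0.28 in aspirin/clopidogrel and 6.08 ± 0.34 in vehicle livers (-0.67, adjusted p = 0.0309). Both also passed against healthy livers (0.66, adjusted p = 0.0163 for Lifr and -0.93, adjusted p = 0.00616 for Cebpd). Those were 1 gene up and 1 down of 20 in each of these comparisons, where 1.96% and 2.77% of all genes passed, and 0 of 20 in the other 7. With the 4 arrays left out, Il6st, which encodes gp130, and Osmr, the oncostatin M receptor, rose in vehicle against healthy livers, 2 of 20 where 3.16% of all genes rose. In that fit Osmr rose and Il6ra, the interleukin-6 receptor, fell against healthy livers both in vehicle with HCC and in sulindac. That was 1 up and 1 down of 20 in each, where 5.01% and 7.76% of all genes passed. Cebpb and Cebpd fell in aspirin/clopidogrel against healthy livers, 2 of 20 where 2.5% of all genes fell, and Lifr no longer passed there. Against vehicle livers Lifr still rose and Cebpd still fell in that fit, 1 up and 1 down of 20 where 4.79% of all genes passed. Stat3, the transcription factor downstream of gp130, differed between vehicle and healthy livers by 0.33 (adjusted p = 0.625), Socs3, its feedback inhibitor, between sulindac and vehicle livers by 0.45 (adjusted p = 0.288), and Cebpb between aspirin/clopidogrel and vehicle livers by -0.20 (adjusted p = 0.415).

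Other positive acute phase genes numbered 24 measured of 28 listed. In aspirin/clopidogrel against vehicle livers, Mbl2 (mannose-binding lectin) rose, 1 of 24 where 0.983% of all genes rose, with 11.89 ± 0.08 in aspirin/clopidogrel and 11.57 ± 0.11 in vehicle livers (0.32, adjusted p = 0.0196). Against healthy livers 4 of 24 rose in aspirin/clopidogrel livers, where 1.64% of all genes rose, namely Fgl1, a fibrinogen-like secreted protein (0.97, adjusted p = 0.00113), Lbp, which binds lipopolysaccharide (0.69, adjusted p = 0.0116), Mbl2 (0.45, adjusted p = 0.00322) and the fibrinogen chain Fga (0.23, adjusted p = 0.0108). In sulindac against healthy livers, where 2.98% of all genes passed, 3 of 24 rose, Fgl1 (0.68), Mbl2 (0.28) and Fga (0.17), and 0 of 24 passed in the other comparisons. When the 4 arrays were dropped, 7 of 24 rose and 1 fell in vehicle against healthy livers, where 3.16% of all genes rose and 2.44% fell. Those that rose included Serpina3n, a protease inhibitor (0.58, adjusted p = 0.0147), and Fgl1 (0.73, adjusted p = 0.0246), and the gene that fell was Hamp. In that fit 8 of 24 also rose in sulindac and 7 of 24 in aspirin/clopidogrel against healthy livers, where 4.87% and 2.92% of all genes rose. For vehicle with HCC against healthy livers 5 of 24 rose and 1 (Hamp) fell, where 2.56% rose and 2.45% fell. For vehicle without HCC it was 2 of 24, where 1.91% rose. Against vehicle livers 4 of 24 (Fga, Hamp, Plg and Mbl2) rose in aspirin/clopidogrel, where 2.42% rose. In sulindac against vehicle livers 1 of 24 (Hamp) rose, where 0.544% rose.

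Of 12 negative acute phase genes, whose products fall during inflammation, 10 were measured and 0 passed in any of the 9 comparisons with all arrays. Alb averaged 13.60 ± 0.06 in aspirin/clopidogrel, 13.56 ± 0.04 in sulindac, 13.53 ± 0.05 in vehicle and 13.53 ± 0.01 in healthy livers. Ttr, the thyroxine carrier transthyretin, averaged 13.12 ± 0.05 in aspirin/clopidogrel, 13.10 ± 0.05 in sulindac, 13.10 ± 0.05 in vehicle and 13.12 ± 0.03 in healthy livers. Alb and Ttr, like Hp, lie near the upper end of the arrays' range. Fetub (fetuin B) differed by -0.25 in vehicle against healthy livers (adjusted p = 0.625), and without the 4 arrays it fell by 0.48 (adjusted p = 0.00181). In that fit Fetub fell in every comparison with healthy livers, 1 of 10 where 1.04% to 2.9% of all genes fell. Igf1 rose in aspirin/clopidogrel against vehicle livers, 1 of 10 where 2.42% of all genes rose.

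Markers of other cells were read beside these results, as each mouse's mean difference from the average of all mice. With all arrays 0 genes passed in any comparison in the lists for hepatocytes (10 measured), neutrophils (11), macrophages and Kupffer cells (12), adipocytes (4), cholangiocytes (5), lymphocytes (8) and stellate cells (8). With the 4 arrays left out, 1 of 12 macrophage markers (Lyz2) and 2 of 8 stellate cell markers (Col3a1 and Reln) rose and 1 of 10 hepatocyte markers (Tat) fell in vehicle against healthy livers. Of all genes 3.16% rose and 2.44% fell in that comparison. In that fit 4 of 12 macrophage markers (Cd68, Adgre1, Lyz2 and Trem2) rose in sulindac against healthy livers, where 4.87% of all genes rose. In aspirin/clopidogrel against healthy livers 2 of 11 neutrophil markers (S100a8 and S100a9) rose, where 2.92% of all genes rose. Of the hepatocyte markers, 1 of 10 (Hpd) rose in aspirin/clopidogrel against vehicle and against sulindac livers, where 2.42% and 0.848% of all genes rose. In sulindac against healthy livers 1 of 10 (Tat) fell, where 2.9% of all genes fell. Single mice stood out. Veh_low_794, with the lowest Lcn2, had 1.52 for adipocyte markers, where all other vehicle mice had at most -0.02. For Veh_low_1819 the highest cell marker list was that of hepatocytes, at 0.02, and the lowest that of stellate cells, at -0.42. Hlth_1807 had 0.91 for neutrophil markers, 1.38 for cholangiocyte markers and 0.49 for stellate cell markers, against -0.25 to 0.01, -0.13 to 0.04 and -0.67 to 0.11 in the other 4 healthy mice. Hlth_1798, with the highest Lcn2, had 0.01 for neutrophil and 0.69 for macrophage markers. Over all mice the deviations of Lcn2 from group means correlated with those of the stellate cell list at 0.58, the neutrophil list at 0.57, the macrophage list at 0.53, the cholangiocyte list at 0.42, the lymphocyte list at 0.08, the adipocyte list at -0.46, the hepatocyte list at -0.54 and the other positive acute phase genes at 0.90. Over the 26 mice without the 4 arrays these were 0.34, 0.74, 0.53, 0.25, -0.04, -0.10, 0.32 and 0.80, so that the hepatocyte value changed sign. The part of these cells in the levels was not tested.

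Among genes at or above the median gene mean and outside the 9, those whose pattern over 30 mice was most like the mean of the acute phase genes were Tnfrsf1a, a receptor of tumour necrosis factor (Pearson 0.88), Mpeg1, a macrophage pore-forming protein (0.87), Hpx, the haem carrier haemopexin (0.87), C4b, a complement component (0.86), and Oas1g, an interferon-induced gene (0.84). Mpeg1 was also the most like Lcn2 (0.94), Orm2 (0.88) and Saa1 (0.85) taken singly. Next came Samd9l (0.89) and Ifi27l2b (0.89) for Lcn2, Steap4 (0.87) and Samd9l (0.86) for Orm2, and Ifi27l2b (0.84) and Ppt1 (0.83) for Saa1. For Mpeg1 and Lcn2 the correlation was 0.94 for deviations from group means, 0.91 within the 10 sulindac livers and 0.95 within the 6 aspirin/clopidogrel livers. For Saa1 and Ifi27l2b it was 0.77, 0.01 and 0.07. Over the 26 mice without the 4 arrays Mpeg1 correlated with Lcn2 at 0.96, with Orm2 at 0.93 and with Saa1 at 0.86. These genes were picked for the highest correlations, so the values are descriptions.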

How the data were processed

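Total RNA from 20 mg of fresh-frozen non-tumour liver of 30 mice was hybridised to Affymetrix HT MG-430 PM arrays, per the labels' protocols. The deposited intensity values, 1 per probe set on a linear scale, were made by the authors with RMA (submitters' processing notes) and quantile normalization (design text), in versions not stated there. Log2 was taken of the deposited values. Of 45141 probe sets 104 are controls, 28898 have 1 gene symbol and 551 several, and the brightest probe set of each of 17097 genes was kept without a filter on low intensity. Mice were grouped by the labels. No mean over the members was tested.

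A model of 5 group means was fitted with limma 3.58.1 in R 4.3.3 (25 residual and 2.37 prior degrees of freedom), and p-values were adjusted by Benjamini-Hochberg over all genes within each of 9 comparisons, with 0.05 as threshold. The vehicle mean is over its 9 mice. Intervals are 95% intervals of the fit. Precision is limited by how many arrays there are. The fit was tested on simulated data. The members, gene lists and alternatives were chosen with earlier results of these data known. Named genes are all members, up to 4 genes of each list with the smallest p past the threshold (or 2 by unadjusted p) and a fixed set of regulators and plasma proteins, and the likeness genes are those with the highest correlation. Alternatives were the arrays in the fit, all probe sets, a filter on dim genes, a trended robust variance, a shift of each array, the 4 arrays left out and each mouse left out. Promoter windows and positions are RefSeq's on GRCm38.p6, matched by symbol and read with Biopython. Proteins and the window of Hp were not analysed here.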

Additional observations from a re-analysis of the deposited data

Results flagged for a closer look

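In 2 of 45 sets of a gene and a group (groups of 4 to 10 mice), 1 mouse lay far from the others by Dixon's criterion, which chance meets in about 1 in 20 sets. Saa1 in Veh_high_1770 was 11.31, where the other 3 livers with HCC lay between 11.81 and 11.90. Saa1 in Sulin_23 was 12.31, where the nearest sulindac liver had 11.60 and the lowest 11.04. Sulin_23 was also the highest of all 30 mice for Saa2 (12.31), Saa3 (8.36) and Orm2 (11.13).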

How the results depend on the processing

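With all 30 arrays the number of acute phase genes past the threshold was 3 in aspirin/clopidogrel against healthy livers, 1 in aspirin/clopidogrel against vehicle livers and 0 in the other 7 comparisons. Without the 4 arrays nearer the other group it became 6 and 3 in these, 5 in sulindac against healthy, 5 in vehicle against healthy, 6 in vehicle with HCC against healthy, 4 in vehicle without HCC against healthy and 2 in aspirin/clopidogrel against sulindac. When the fit held only the groups being compared it was 0 in both aspirin/clopidogrel comparisons, and with arrays shifted to 1 median of the brighter genes it was 1 (against healthy) and 0 (against vehicle). Against vehicle with HCC alone, or vehicle without HCC alone, 0 genes passed in aspirin/clopidogrel livers. Leaving out 1 mouse at a time gave 1 to 3 genes for aspirin/clopidogrel against healthy, 0 to 1 for aspirin/clopidogrel against vehicle, 0 to 3 for sulindac against healthy and 0 to 1 for vehicle with HCC against healthy, and 0 in the others. The number of all genes called moved as well, over 283 to 729, 123 to 571, 272 to 732 and 1 to 110 in these 4 comparisons. Over the other alternatives it was 74 to 928 for aspirin/clopidogrel against healthy and 111 to 819 against vehicle. All genes past the threshold numbered 2 in vehicle against healthy with all arrays and 959 without the 4. No called difference changed sign in any alternative run. The causes of the differences between settings were not tested. No paired analysis was possible because the groups share no animal numbers.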
